A study of Mus musculus with 12 samples.

Results

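Lipid-associated macrophages are macrophages that take up and store fat or cell debris, and they are recognised by a small set of transcripts. Of these, 10 were followed here, chosen by name: Trem2, Tyrobp, Apoe, Lpl, Gpnmb, Spp1, Fabp5, Fabp4, Cd9 and Lgals3. All 10 have a row among the 24781 genes of the expression table, and 9 of them were abundant enough to be tested. Transcripts were counted in 12 libraries, each made from 100 CD45+CD11b+F4/80high macrophages sorted on day 7 from MC38 tumours in wild-type (WT) mice. MC38 is a mouse colon adenocarcinoma line, placed intradermally in the flank. The mice had received intraperitoneal picrotoxin, a blocker of the ionotropic GABAA receptor, in DMSO (6 libraries), or DMSO alone (6 libraries), starting before tumour inoculation and repeated every other day. GABA is a neurotransmitter, and the comparison asks what blocking its receptor does to tumour-associated macrophages (TAMs). Mice of both groups were wild type and bore the same tumour. The drug was given to the whole animal, so it could reach cells other than macrophages. The mice were of the C57BL/6J or C57BL/6N strain, adults of both sexes over the whole study, with no age or sex given per library. The labels call the 6 libraries of a group independent preparations, the methods state 1 library per mouse, and the legend for these libraries gives fewer mice than libraries. Libraries of a group may therefore share an animal, which the labels do not tie to libraries, and every SE, interval and p below treats the 6 as independent and would then be too small.

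In the textbook account, the receptor TREM2 binds lipids, lipoproteins and dying cells, and signals through its partner TYROBP (DAP12), which recruits the kinase SYK. Apolipoprotein E carries lipid out of the cell and is a TREM2 ligand. Lipoprotein lipase frees fatty acids, the fatty acid-binding proteins FABP4 and FABP5 carry them inside the cell, and GPNMB, osteopontin (Spp1), CD9 and galectin-3 (Lgals3) mark macrophages loaded with lipid in adipose tissue, atheroma and tumours.

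The libraries held 201697 to 309617 unique molecules. Values below are molecules divided by DESeq2 size factors (normalised molecules), given as lowest, median and highest of the 6 libraries. Together the 10 genes took 0.527% to 0.734% of all molecules of a library. The sorted cells carried macrophage transcripts: 12 of 12 macrophage markers were detected, at 0.863% to 1.26% of molecules in DMSO and 1.07% to 1.23% with picrotoxin. All 9 adipocyte markers, Adipoq and Plin1 among them, were at 0 in all 12 libraries. Fibroblast and matrix markers, 14 of 14 detected, ranged from 0.00683% to 0.294% in DMSO and from 0.00572% to 0.0288% with picrotoxin, highest in DMSO replicate 5. Of 11 marker lists with any molecule, 0 differed between the groups by an exact permutation test with Benjamini-Hochberg adjustment. In that test 0 lists had an unadjusted p under 0.05. The lowest permutation p was 0.0649 (adjusted p 0.471), for the epithelial markers of MC38. Of these 7 genes, 5 were at 0 in all 12 libraries, Epcam among them. In bulk samples such as these, fewer cells that express a gene and less RNA per cell cannot be told apart.

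No member passed the test across all genes. With edgeR's quasi-likelihood test and Benjamini-Hochberg adjustment over 9580 genes, 0 of 9 members had an adjusted p under 0.05, where 0.0522% of all tested genes did. At an unadjusted p under 0.05, 1 member was higher with picrotoxin (background 3.65%) and 0 were lower (background 4.11%), and with DESeq2 0 were higher. Of the 9 estimates, 6 were positive and 3 negative, with a median log2 fold change of 0.08 against -0.01 for all tested genes. The 6 picrotoxin and 6 DMSO values overlapped for each of the 9, where 0.386% of tested genes had groups that did not overlap. What stood apart was 1 library: picrotoxin replicate 4 held the highest value of the 12 libraries for 4 of 9 members, Lpl, Gpnmb, Spp1 and Fabp5, where it did so for 8.46% of tested genes.

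**Figure D1:**
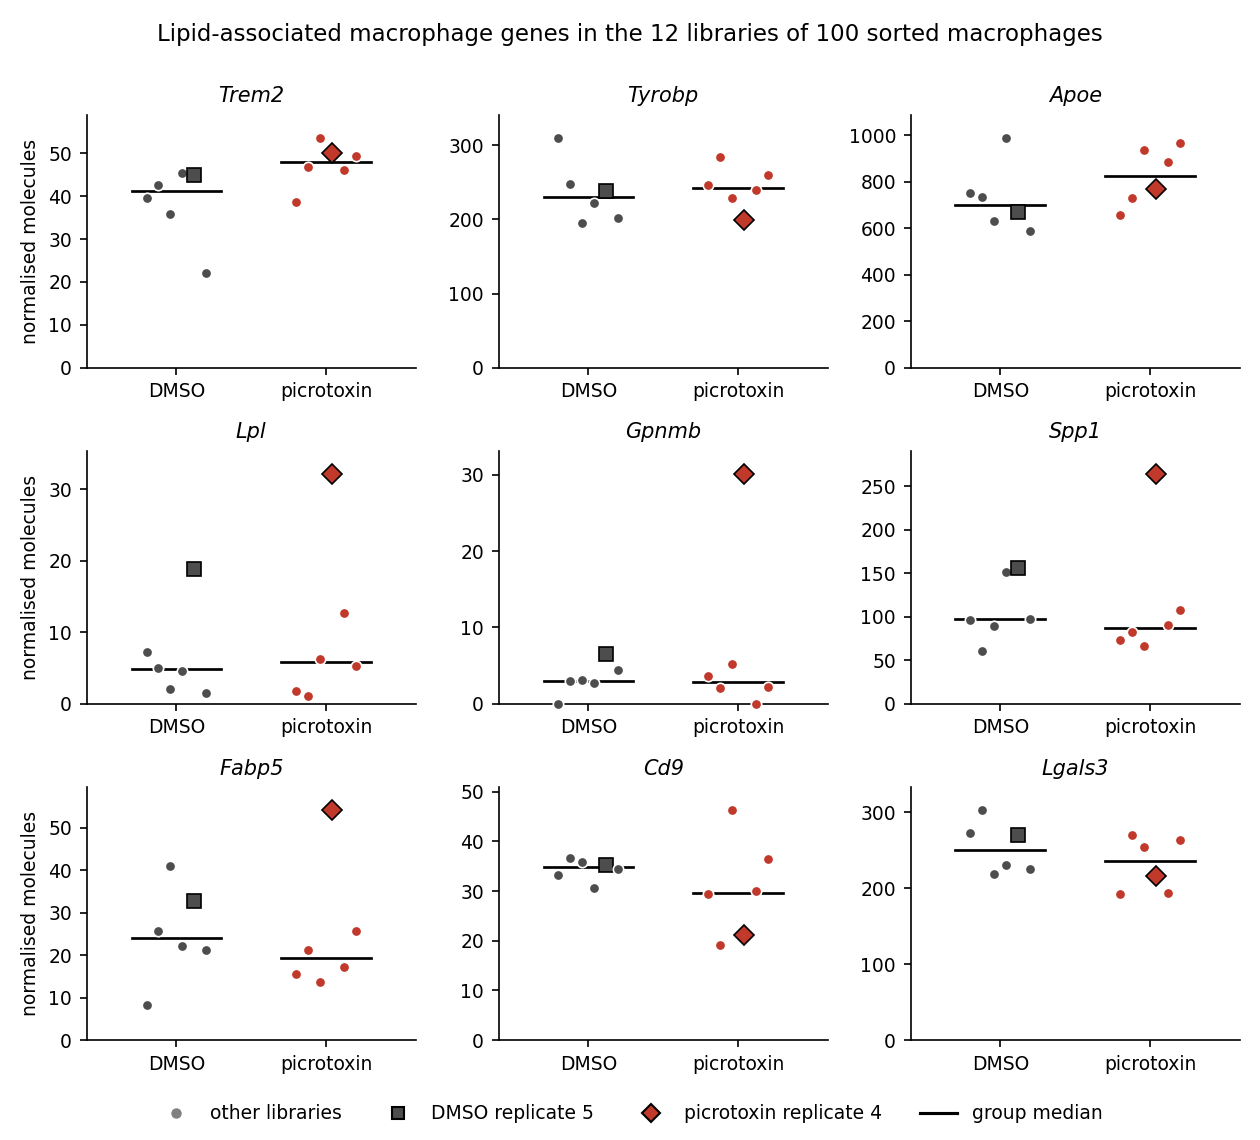
Normalised molecules (vertical axis, from 0) of the 9 tested members in each library, 6 DMSO in grey and 6 picrotoxin in red, with a line at each group's median. For Lpl, Gpnmb, Spp1 and Fabp5 the diamond, picrotoxin replicate 4, lies above all other libraries, at 32.1, 30.1, 264 and 54.2, and for the other 5 genes it lies among them.

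In CPM per kilobase of transcript, the levels over all libraries ran from Apoe (2360) and Tyrobp (1717) through Lgals3 (733), Spp1 (316), Trem2 (169), Cd9 (113) and Fabp5 (108) to Lpl (8.53), Gpnmb (6.01) and Fabp4 (0.409). On this scale of level, 0.275% of tested genes were above Apoe, 5.04% above Trem2, 53.6% above Lpl and 64.2% above Gpnmb. On this scale the genes from Apoe to Fabp5 were among the more abundant transcripts of these cells, with 7.13% of tested genes above Fabp5. Trem2 stood below Lgals3 and Spp1, and the lipase and Gpnmb were near the middle of the range. These counts are of 3' ends, so the division by length understates long transcripts such as Lpl (4115 bases) and Gpnmb (3701 bases). Undivided, the mean of Lgals3 (242 normalised molecules) was above that of Tyrobp (239), and the order of the others was the same.

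The receptor gene Trem2 (ENSMUSG00000023992, GRCm38 chr17:48346401-48354147, plus strand) had 22.0, 41.1 and 45.5 normalised molecules in DMSO and 38.7, 48.0 and 53.6 with picrotoxin. Of the 6 picrotoxin libraries, 5 lay above the highest DMSO library, and DMSO replicate 6, at 22.0, lay well under the other 11. Its log2 fold change was 0.32 ± 0.16 (SE), with a 95% interval of 0.01 to 0.64, an unadjusted edgeR p of 0.0456 and an adjusted p of 0.632. Without DMSO replicate 6 the log2 fold change was 0.19, with an unadjusted p of 0.196. Among replicates 3 to 6 alone it was 0.46, and its unadjusted p of 0.0203 became 0.414 after adjustment. Replicates 1 and 2 gave a log2 CPM difference of 0.05 over 2 libraries a group. The values rest on 30 to 55 molecules of Trem2 a library.

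The adaptor gene Tyrobp (ENSMUSG00000030579, GRCm38 chr7:30413760-30417585, plus strand) had 195, 230 and 310 normalised molecules in DMSO and 200, 243 and 283 with picrotoxin. The groups covered almost the same range, and the highest library was DMSO replicate 1. Its log2 fold change was 0.05 ± 0.11 (SE), with a 95% interval of -0.17 to 0.28 and an adjusted edgeR p of 0.953. The most abundant member, Apoe (ENSMUSG00000002985, GRCm38 chr7:19696109-19699188, minus strand), had 587, 702 and 990 normalised molecules in DMSO and 659, 827 and 967 with picrotoxin. Of the 6 picrotoxin libraries, 5 were above the DMSO mean, but the highest value of all was DMSO replicate 4. The log2 fold change of Apoe was 0.19 ± 0.11 (SE), with an interval of -0.03 to 0.41 and an adjusted edgeR p of 0.732. Without DMSO replicate 4 it was 0.29, with an unadjusted p of 0.00545 and an adjusted p of 0.306, and without DMSO replicate 6 it was 0.14. Among replicates 3 to 6 alone Apoe had a log2 fold change of 0.32, with an unadjusted p of 0.00926 and an adjusted p of 0.323. Replicates 1 and 2 gave a log2 CPM difference of -0.10, a value of the opposite sign. The difference between these sets of replicates was not tested.

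Gpnmb, a transmembrane glycoprotein of lysosome-rich macrophages (ENSMUSG00000029816, GRCm38 chr6:49036546-49070929, plus strand), had 0, 3.03 and 6.54 normalised molecules in DMSO and 0, 2.91 and 30.1 with picrotoxin. The medians were alike, and picrotoxin replicate 4, with 30 molecules (95% Poisson interval 20.2 to 42.8), was 14.04 times the median of the other 5 picrotoxin libraries. Gpnmb had the largest estimate of the 9, a log2 fold change of 1.08 ± 0.60 (SE) with an interval of -0.13 to 2.30, an unadjusted p of 0.079 and an adjusted edgeR p of 0.729. Without picrotoxin replicate 4 it was -0.32, with an interval of -1.47 to 0.83. The lipase gene Lpl (ENSMUSG00000015568, GRCm38 chr8:68880491-68907448, plus strand) had 1.46, 4.80 and 18.8 normalised molecules in DMSO and 1.06, 5.83 and 32.1 with picrotoxin. Picrotoxin replicate 4 was highest and DMSO replicate 5 next, and each was far from the rest of its own group. The Lpl transcript matched segments of many other transcripts. Among them on the opposite strand were Cd274 (446 molecules) and Eif2a (163), and on the same strand Pgm2l1 (91) and Sntb2 (70). Other matches had few or 0 molecules, or no row in the table. Whether reads of Lpl were shared with these transcripts was not tested. The log2 fold change of Lpl was 0.57 ± 0.52 (SE), with an interval of -0.48 to 1.63 and an adjusted edgeR p of 0.859, and without picrotoxin replicate 4 it was -0.32.

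Osteopontin, an adhesive secreted protein encoded by Spp1 (ENSMUSG00000029304, GRCm38 chr5:104435118-104441050, plus strand), had 60.6, 97.1 and 155 normalised molecules in DMSO and 66.2, 86.8 and 264 with picrotoxin. Picrotoxin replicate 4 was 3.19 times the median of the other 5 picrotoxin libraries, whose highest value was 108. Spp1 overlaps the transcript Gm42793 on the same strand (100% over 181 bases). Gm42793 has no row in the table, so reads shared with it could not be followed. The log2 fold change of Spp1 was 0.08 ± 0.23 (SE), with an interval of -0.39 to 0.55 and an adjusted edgeR p of 0.971. Without picrotoxin replicate 4 it was -0.36, with an interval of -0.71 to -0.01, an unadjusted p of 0.045 and an adjusted p of 0.667. Fabp5 (ENSMUSG00000027533, GRCm38 chr3:10012548-10016607, plus strand) had 8.32, 24.04 and 41.0 normalised molecules in DMSO and 13.7, 19.2 and 54.2 with picrotoxin. Picrotoxin replicate 4 was 3.14 times the median of the other 5, whose highest value was 25.7. Fabp5 had a log2 fold change of -0.02 ± 0.27 (SE), with an interval of -0.57 to 0.53, and of -0.42 without picrotoxin replicate 4 (unadjusted p 0.104). Its transcript matched the processed pseudogenes Gm6166 (98.3% over 409 bases) and Gm14328 (97.3% over 408 bases), which have no row in the table, so reads shared with them could not be followed.

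The remaining binding protein, Fabp4 (ENSMUSG00000062515, GRCm38 chr3:10204088-10208576, minus strand), was seen as 1 molecule in the 12 libraries, in picrotoxin replicate 3. A count of 0 allows up to 3 molecules (a one-sided limit, unlike the two-sided Poisson interval above), which is a share of 0.00149% in the library with fewest molecules, and this limit covers counting error only. Fabp4 was not tested. The tetraspanin gene Cd9 (ENSMUSG00000030342, GRCm38 chr6:125460266-125494791, minus strand) had 30.6, 34.8 and 36.7 normalised molecules in DMSO and 19.1, 29.7 and 46.3 with picrotoxin. The DMSO values lay close together, and 4 of 6 picrotoxin values were below all of them while 1 was above. Cd9 had a log2 fold change of -0.17 ± 0.17 (SE), with an interval of -0.52 to 0.18 and an adjusted edgeR p of 0.879, and it was -0.33 without picrotoxin replicate 3 and -0.07 without picrotoxin replicate 2. It overlaps the transcripts Gm28809 and Gm26728 on the opposite strand, and whether the counting used strand was not given in the sources used here. The galectin-3 gene Lgals3, which encodes a sugar-binding protein of phagocytic macrophages (ENSMUSG00000050335, GRCm38 chr14:47367751-47386160, plus strand), had 218, 249.99 and 303 normalised molecules in DMSO and 193, 236 and 270 with picrotoxin. The ranges overlapped over most of their length, and 3 picrotoxin libraries lay below the lowest DMSO library. Lgals3 had a log2 fold change of -0.11 ± 0.11 (SE), with an interval of -0.33 to 0.10 and an adjusted edgeR p of 0.867.

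**Figure D2:**
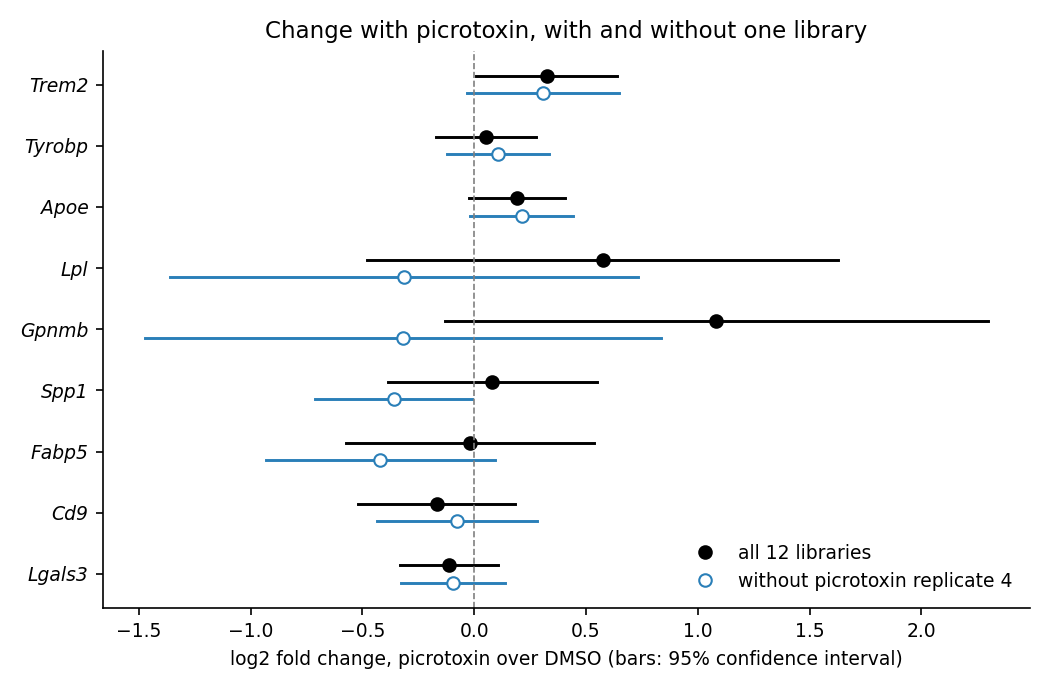
Log2 fold change of picrotoxin over DMSO (horizontal axis) of the 9 tested members with its 95% confidence interval from edgeR, from all 12 libraries (filled) and without picrotoxin replicate 4 (open). Gpnmb moves from 1.08 to -0.32, Lpl from 0.57 to -0.32, Spp1 from 0.08 to -0.36 and Fabp5 from -0.02 to -0.42, while Trem2 moves from 0.32 to 0.31 and Apoe from 0.19 to 0.21.

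Picrotoxin replicate 4 was set against its own group. By Dixon's rule for 6 values it lay far above the other 5 picrotoxin libraries for 4 of 9 members, where it did so for 1.08% of tested genes. The pattern was noticed in these data, and no test was made of it. Its total of 239827 molecules and its 10181 detected genes were within the range of the other libraries, and its share of the ribosomal RNA row Rn45s, 15.2%, was the highest of the 12. Macrophage markers took 1.07% of its molecules (1.12% to 1.23% in the rest of the group). Monocyte markers took 0.160% of its molecules (0.105% to 0.139% over replicates 1 to 3, 5 and 6), and fibroblast and matrix markers 0.0288%, where those 5 had 0.00572% to 0.0223%. Adipocyte markers were at 0 there. The part of these differences in the 4 genes was not tested.

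DMSO replicate 5 was the DMSO library with the most Lpl, Gpnmb and Spp1, at 18.8, 6.54 and 155 normalised molecules, and it also had the most fibroblast and matrix transcripts, at 814 molecules (the lowest DMSO library had 15). With the level of those markers as a covariate in edgeR, the log2 fold change of Gpnmb was 1.97 ± 0.67 (SE, unadjusted p 0.00508, adjusted p 0.667) and that of Lpl was 1.61 ± 0.55 (SE, unadjusted p 0.00534, adjusted p 0.671). Without both DMSO replicate 5 and picrotoxin replicate 4, Gpnmb was at -0.02, Spp1 at -0.23 and Lpl at 0.42. The sign of the estimate for these genes therefore depended on which of the extreme libraries was kept.

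By edgeR's measure, Gpnmb, Lpl, Spp1 and Fabp5 varied more between libraries than most genes. Values of that measure without picrotoxin replicate 4 are not reported here. The biological coefficient of variation, edgeR's estimate of the relative spread between libraries of a group beyond counting error, was 0.573 for Gpnmb, 0.534 for Lpl, 0.282 for Spp1 and 0.277 for Fabp5. It was 0.13 to 0.15 for the rest, with a median of 0.147 over all tested genes. For Gpnmb and Lpl, 0.71% and 1.01% of tested genes had a higher value, for Spp1 and Fabp5 13.2% and 14.1%. The plain ratio of variance to counting error, which rises with the level of a gene, went without picrotoxin replicate 4 from 9.54 to 1.46 for Gpnmb, from 10.6 to 5.77 for Lpl, from 31.4 to 9.18 for Spp1 and from 7.04 to 3.24 for Fabp5. Over all libraries that ratio was 24.9 for Apoe, 5.35 for Tyrobp and 4.94 for Lgals3, against a median of 1.104 over tested genes, with 0.198%, 1.66% and 1.87% of genes higher. The coefficient falls with the level of a gene, and Spp1, at a mean of 111 normalised molecules, lay above most genes of its level.

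**Figure D3:**
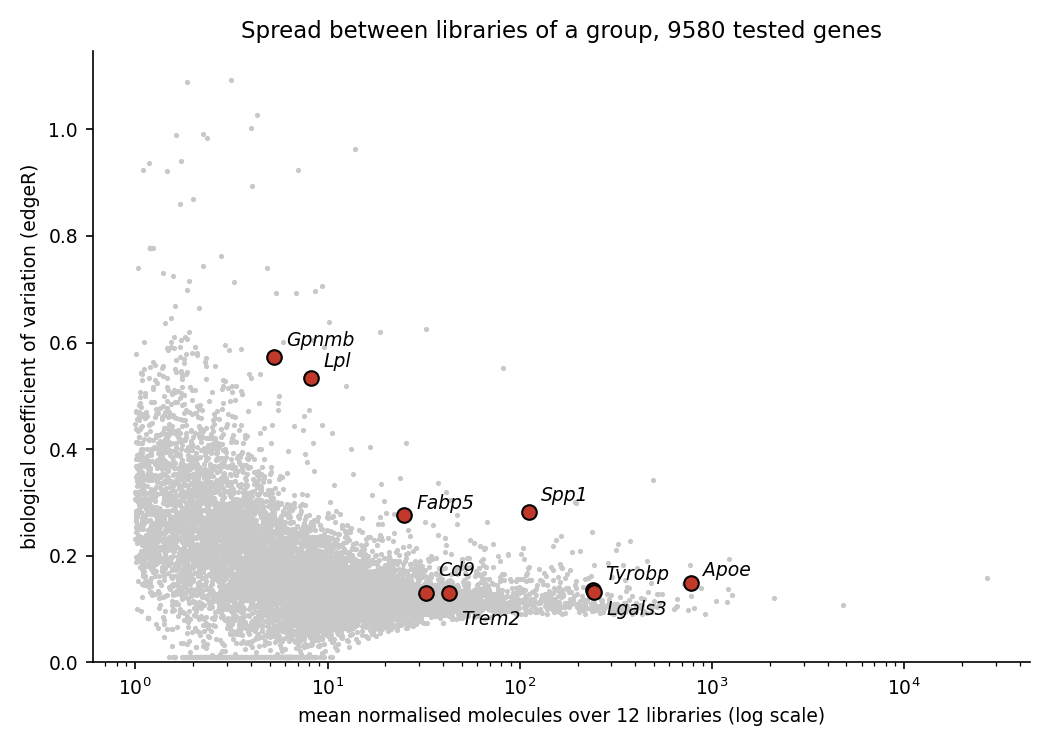
Biological coefficient of variation (vertical axis) against mean normalised molecules over the 12 libraries (horizontal log axis) for the 9580 tested genes (grey) and the 9 tested members (red). Gpnmb (0.573), Lpl (0.534), Spp1 (0.282) and Fabp5 (0.277) lie in the upper part of the cloud at their levels, and the other 5 members lie near 0.13 to 0.15.

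How the members varied together between libraries was read from correlations. They were taken over the 12 libraries on log2 CPM after removing the group means, for 36 pairs, and 0 pairs passed a permutation test with Benjamini-Hochberg adjustment, by Pearson's r or Spearman's rho. Unadjusted, 6 pairs had a Pearson p and 3 a Spearman p under 0.05. The 6 pairs among Lpl, Gpnmb, Spp1 and Fabp5 had r from 0.31 to 0.71, highest for Gpnmb with Fabp5 (permutation p 0.0199, adjusted p 0.268, rho 0.51, permutation p 0.1005). Their median r was 0.58, and it was 0.08 without picrotoxin replicate 4. These 4 genes were grouped because each was highest in that library. A shared r that falls without it follows from that choice and is no separate finding. Trem2 and Apoe, the receptor and its ligand, had an r of 0.66 (permutation p 0.0446, adjusted p 0.268) and a rho of 0.65 (permutation p 0.0198, adjusted p 0.356). That r was 0.55 without the 2 libraries farthest from the median of Trem2, 0.61 among replicates 3 to 6 and 0.68 without picrotoxin replicate 4. Trem2 and its adaptor Tyrobp had an r of 0.29 (permutation p 0.433) and a rho of 0.16 (permutation p 0.629). Tyrobp with Gpnmb had an r of -0.64 (permutation p 0.0174, adjusted p 0.268) and a rho of -0.70 (permutation p 0.0153, adjusted p 0.356), and that r was -0.04 without the 2 libraries farthest from the median of Tyrobp, -0.57 among replicates 3 to 6 and -0.53 without picrotoxin replicate 4.

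**Figure D4:**
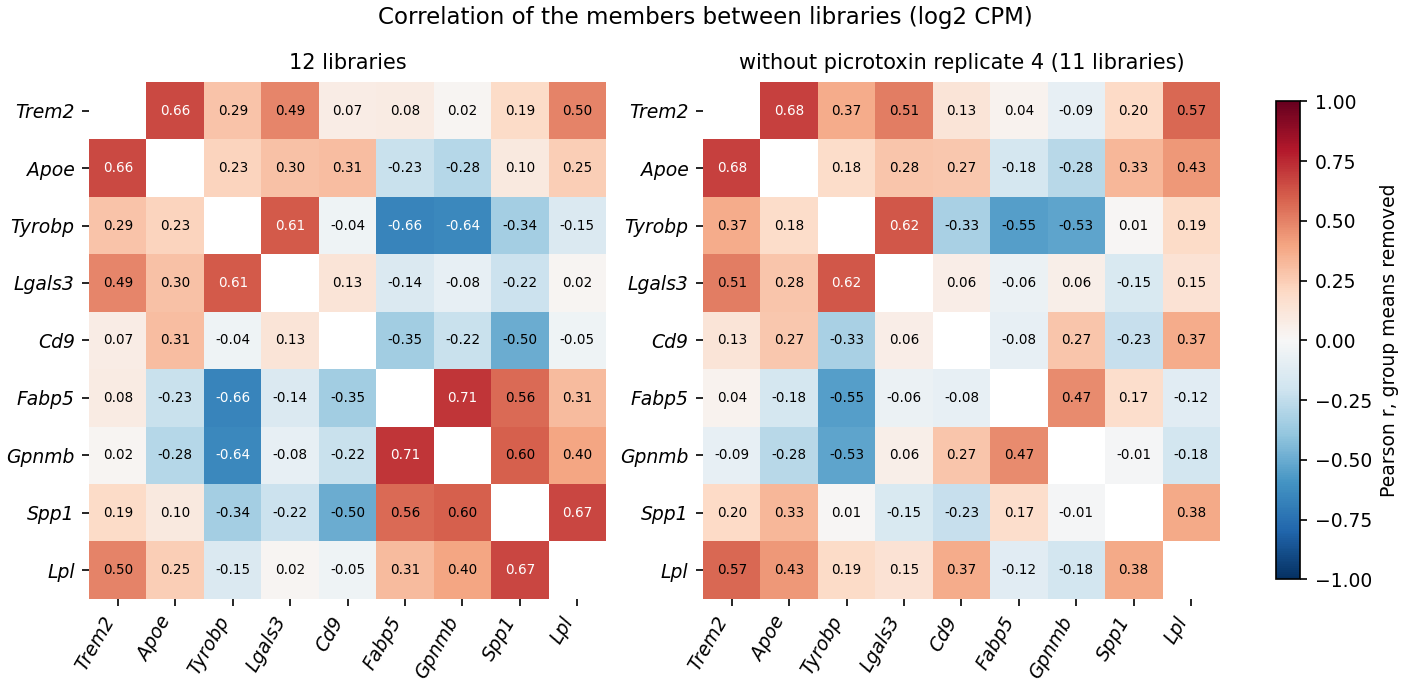
Pearson's r between the 9 tested members over the libraries, log2 CPM with group means removed, for all 12 libraries (left) and without picrotoxin replicate 4 (right), on a colour scale from -1 (blue) to 1 (red). The red block of Fabp5, Gpnmb, Spp1 and Lpl at the lower right of the left panel fades in the right panel. These 4 genes were grouped by their high values in picrotoxin replicate 4, so the fading follows from that choice. Trem2 with Apoe keeps its colour (0.66 and 0.68).

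Among 707 genes with a mean of at least 50 normalised molecules, those most like each member by this r are given as a description. Trem2 was most like Csf2rb (r 0.86), the shared beta chain of cytokine receptors, which has a close copy in Csf2rb2, followed by the adaptor gene Grb2 (0.80) and the inhibitory receptor gene Sirpa (0.80). Apoe was most like Cst3 (0.89), which encodes cystatin C, then Rbpj (0.85) and Tma7 (0.80). Genes like Tyrobp included Prelid1 (0.90) and Gapdh (0.89). Lgals3 was most like Crip1 (0.93), Rpl39 (0.86) and Lilr4b (0.81), a receptor gene with close paralogs. Spp1 was most like Hnrnpab (0.87), the macrophage transcription factor gene Maf (0.82) and Srsf2 (0.81), and Fabp5 and Gpnmb shared Mif (0.77 and 0.80), a cytokine gene. The libraries share depth and composition, and the highest of 707 values of r is high by selection.

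The promoters of 6 members have an entry in the RefSeq table of promoters used here (GRCm38.p6), and 3 are shown, Trem2 for its nominal difference between the groups, and Gpnmb and Spp1 as genes high in the same library. Tyrobp, Lpl, Fabp5 and Fabp4 are named only. Each sequence runs 5′ to 3′ on the gene's strand from 250 bases before to 20 bases into the transcript, with position 0 at the start site and motif matches in capitals.
Trem2 (chr17:48346151-48346420, plus strand): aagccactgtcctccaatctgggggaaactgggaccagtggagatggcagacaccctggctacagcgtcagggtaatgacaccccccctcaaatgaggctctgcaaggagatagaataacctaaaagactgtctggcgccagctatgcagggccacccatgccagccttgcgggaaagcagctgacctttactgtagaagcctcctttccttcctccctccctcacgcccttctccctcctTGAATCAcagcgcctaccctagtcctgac
Gpnmb (chr6:49036268-49036537, plus strand): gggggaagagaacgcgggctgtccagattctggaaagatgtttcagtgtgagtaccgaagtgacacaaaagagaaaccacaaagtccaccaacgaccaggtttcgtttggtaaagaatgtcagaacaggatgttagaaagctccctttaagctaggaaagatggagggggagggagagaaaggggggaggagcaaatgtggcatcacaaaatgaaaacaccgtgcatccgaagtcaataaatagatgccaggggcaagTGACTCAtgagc
Spp1 (chr5:104434861-104435130, plus strand): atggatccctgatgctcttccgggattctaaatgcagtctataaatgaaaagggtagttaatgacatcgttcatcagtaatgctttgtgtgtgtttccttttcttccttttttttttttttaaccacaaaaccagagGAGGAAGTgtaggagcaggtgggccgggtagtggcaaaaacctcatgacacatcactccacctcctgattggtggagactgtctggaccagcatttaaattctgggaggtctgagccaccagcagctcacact
The AP-1 motif TGANTCA was found on either strand in the windows of Trem2, at -9, and Gpnmb, at 8, and in 7.23% of the 32851 promoter windows of the same 270 bases. The PU.1-type motif GAGGAAGT was found in that of Spp1, at -113, and in 2.72% of windows. The E-box CACGTG (6.57% of windows) and the M-box TCATGTG (3.49%), letters bound by the MiT family of lysosomal regulators, were not found in these 3 windows. None of these motifs overlaps another here, and a match is a description of letters only.

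Genes around the members were read from 7 lists, and 0 of their tested genes had an adjusted edgeR p under 0.05. Counts at an unadjusted p under 0.05 stand beside the 3.65% higher and 4.11% lower of all tested genes. For TREM2 receptor signalling, 18 of 21 genes were tested, 2 were higher and 0 lower at an unadjusted p under 0.05, and the median log2 fold change was 0.15 against -0.01 for all tested genes. Both act just below the receptor. Syk, the kinase recruited by TYROBP, had 16.7 to 26.8 normalised molecules in DMSO and 21.2 to 33.2 with picrotoxin, with a log2 fold change of 0.45 ± 0.18 (SE, adjusted p 0.499). Hcst, which encodes DAP10, the other adaptor of TREM2, had 0.732 to 4.64 in DMSO and 4.01 to 8.29 with picrotoxin, with a log2 fold change of 1.20 ± 0.41 (SE, adjusted p 0.398). All 6 picrotoxin libraries lay above the DMSO mean for either gene.

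In the wider programme of lipid-associated macrophages (LAM), 24 of 28 genes were tested, 2 were higher and 2 lower, with a median log2 fold change of -0.02. Clec7a, the beta-glucan receptor dectin-1, had 104 to 135 normalised molecules in DMSO and 101 to 220 with picrotoxin, highest in picrotoxin replicate 4, a log2 fold change of 0.39 ± 0.14 (SE, adjusted p 0.408). Among replicates 3 to 6 alone the log2 fold change of Clec7a was 0.65, with an adjusted edgeR p of 0.00484. Without picrotoxin replicate 4 in that set it was 0.50 with an adjusted p of 0.078. Replicates 3 to 6 alone had 49 of 9580 tested genes at an adjusted edgeR p under 0.05, against 5 over all 12 libraries. Timp2, a metalloproteinase inhibitor, had a log2 fold change of -0.44 (adjusted p 0.545) and the macrophage growth factor gene Csf1 of -0.91 (adjusted p 0.622). With the level of the fibroblast and matrix markers as a covariate, Timp2 was at -0.11 and Csf1 at -0.46.

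For fatty acid handling, 24 of 28 genes were tested, 0 were higher and 1 lower, with a median log2 fold change of -0.02. That gene was Lmf1, a factor for the maturation of lipases, at 2.78 to 3.97 normalised molecules in DMSO and 0 to 3.45 with picrotoxin, with a log2 fold change of -1.36 ± 0.58 (SE, adjusted p 0.570). For lipoprotein and sterol export, 15 of 17 were tested, 1 was higher and 1 lower, with a median of 0.15. Npc1, which moves cholesterol out of lysosomes, had 18.6 to 22.0 normalised molecules in DMSO and 22.1 to 42.1 with picrotoxin, so its groups did not overlap, and a log2 fold change of 0.50 ± 0.18 (SE, adjusted p 0.410). Its highest value was in picrotoxin replicate 4. Vldlr, a lipoprotein receptor gene with at most 6.15 normalised molecules in any library, had a log2 fold change of -2.06 ± 0.84 (SE, adjusted p 0.519).

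Among the lipid and lysosome transcription factors, 17 of 19 genes were tested, 3 were higher and 0 lower, with a median log2 fold change of 0.13. The corepressor gene Ncor1 had 27.1 to 43.2 normalised molecules in DMSO and 35.9 to 67.2 with picrotoxin (log2 fold change 0.49, adjusted p 0.312). The lysosomal regulator Tfe3 had a log2 fold change of 0.59 (adjusted p 0.545). Of the osteopontin receptors, 7 of 8 were tested, 3 were higher and 0 lower, with a median of 0.14. The integrin gene Itga4 had 25.6 to 31.5 normalised molecules in DMSO and 28.9 to 54.2 with picrotoxin, a log2 fold change of 0.52 ± 0.16 (SE, adjusted p 0.312). Cd44 had a log2 fold change of 0.26 (adjusted p 0.571) and Itga5 of 0.47 (adjusted p 0.622). The ligand gene Spp1 itself stood at 0.08.

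Of 28 relatives of the members in the same gene families, 12 were tested, 0 were higher and 2 lower, with a median log2 fold change of -0.16. The tetraspanin genes Tspan31 and Tspan3 had log2 fold changes of -0.53 (adjusted p 0.501) and -0.59 (adjusted p 0.622), and all 6 picrotoxin libraries lay below the DMSO mean for either. Among the 16 relatives not tested, Fabp1, Fabp2, Fabp6, Fabp7 and Lipc had 0 molecules and Fabp3 had 1.

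**Figure D5:**
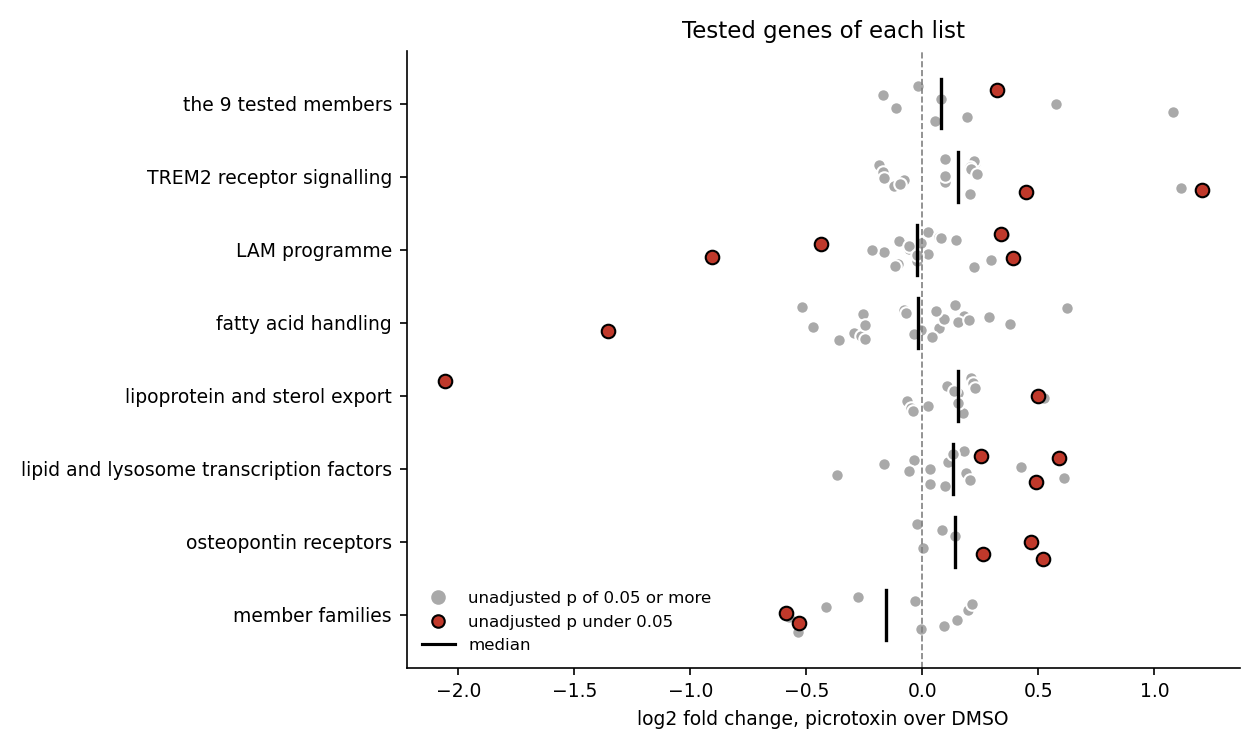
Log2 fold change of picrotoxin over DMSO (horizontal axis) for each tested gene of the members and of the 7 lists (rows), red where the unadjusted edgeR p was under 0.05 and grey otherwise, with a line at each median. The medians lie between -0.16 for the member families and 0.15 for the lipoprotein and sterol list, and 0 genes of these lists had an adjusted p under 0.05.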

How the data were processed

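Macrophage libraries of 100 sorted cells carried molecular barcodes and oligo-dT primers. The authors aligned reads to mm10 with STAR and deposited 1 table of counts of unique molecules per gene, with no further normalisation. The counting step was not given in the sources used here beyond its refFlat annotation, and all 12 columns belong to a labelled sample. Members and lists were chosen with earlier results of these data known.

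Genes with a mean above 1 normalised molecule were tested (9580) with edgeR 4.0.16 (TMM, quasi-likelihood F test, group as the only term, Benjamini-Hochberg adjustment) in R 4.3.3. DESeq2 1.42.0, limma-voom 3.58.1 and exact permutation over 924 assignments were alternatives, as were other scalings, filters, covariates and sets of libraries. The smallest p that permutation allows is 0.00216, which passes adjustment over all genes only where many genes share it, and 0 genes passed. Outlying libraries were marked by Dixon's 95% critical value for 6 values. Correlations used 100000 permutations within groups. The fits were tested on simulated counts with known changes. Library pairs within a group differed by more than counting noise (chi-square per degree of freedom 1.23 to 3.15), so none was counted as a duplicate, which does not show that they came from separate mice. The totals of 201697 to 309617 molecules limit low genes, and Poisson intervals cover counting error only.

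Named were all 10 members, up to 3 genes of a list with the smallest unadjusted p under 0.05, and up to 3 genes most like a member; some genes that this rule names are not reported here. Coordinates, transcript lengths and overlaps came from GENCODE on GRCm38, the assembly of mm10, and 9452 of 9580 tested symbols matched. Transcripts were compared with BLAST 2.17.0 (at least 100 bases at 95% identity).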

Additional observations from a re-analysis of the deposited data

Results flagged for a closer look

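Of 77 sets of 6 values examined, 12 had a highest library whose gap to the next, divided by the range of the group, passed Dixon's 95% critical value. Its chance rate of about 1 in 20 is for independent, normally distributed values. These sets are untransformed counts and shares from the same 12 libraries, so 12 of 77 does not measure an excess. Picrotoxin replicate 4 accounted for 4 of them: Lpl at 32.1 normalised molecules (the other 5 libraries 1.06 to 12.7), Gpnmb at 30.1 (0 to 5.26), Spp1 at 264 (66.2 to 108) and Fabp5 at 54.2 (13.7 to 25.7). Of its Lpl, the gap was 0.627 of the range, just past the critical value, and of its Gpnmb it was 0.825.

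DMSO replicate 5 accounted for 3, with Lpl at 18.8 normalised molecules (1.46 to 7.28 in the others), Tspan3 at 13.9 (8.35 to 10.4) and fibroblast and matrix markers at 0.294% of molecules (0.00683% to 0.087%). Fabp4 was set apart by its single molecule in picrotoxin replicate 3, which is 1.05 after normalisation. A single molecule among values of 0 always passes, so this case and that of the T and NK cell markers say nothing of an excess over chance. Syk was at 26.8 normalised molecules in DMSO replicate 2 (16.7 to 19.8 in the others), which lowers the gap between its groups. Csf1 was at 9.20 in picrotoxin replicate 5 (1.06 to 3.15). Epithelial markers of MC38, with 5 of 7 genes at 0 in every library, took 0.00637% of DMSO replicate 1 (0.00325% to 0.0044%). T and NK cell markers took 0.000455%, a single molecule, of the same library and 0 of the other 5.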

How the results depend on the processing

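Over 27 alternatives to the fit, 0 members passed an adjusted p of 0.05, with a lowest adjusted p of 0.306, for Apoe. Over the whole table the number of genes called was 5 and ranged from 0 to 81. The 17 list genes with an unadjusted p under 0.05 kept their direction. Of these, 1 call was gained, Clec7a among replicates 3 to 6 alone, where 49 genes were called over the table. Members higher at an unadjusted p under 0.05 (1) were 0 with DESeq2, with DESeq2 size factors, with library totals and with a mean above 10. They were 2 with limma-voom, no filter, the matrix covariate or a term for replicates 1 and 2. They were 3 among replicates 3 to 6 or without DMSO replicates 3 and 5. Over all 9580 tested genes, unadjusted calls in either direction were 744 in the main fit. Those calls numbered 387 with DESeq2, 742 with limma-voom, 902 among replicates 3 to 6 and 514 without DMSO replicates 3 and 5. They numbered 750 with DESeq2 size factors, 745 with library totals, 567 with the covariate and 796 with the term. With a mean above 10 they were 396 of 3741 genes, and with no filter 1024 of 13815. When 1 library was left out, 611 to 825 of the 9580 tested genes were called unadjusted, in either direction. Leaving out 1 library gave 0 to 3 members higher and 0 to 1 lower. It gave 0 to 1 with groups that do not overlap (Trem2 without picrotoxin replicate 1, where the share over all genes was not computed). Replicates 3 to 6 without picrotoxin 4, chosen after seeing the data, gave 2 members lower, beside 819 genes called in either direction over the table.

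In the main fit 11 list genes were higher and 6 lower, of the numbers tested given above for each list. Over all 9580 tested genes, 350 were higher and 394 lower. When 1 library was left out, the list counts ranged from 7 to 13 and from 2 to 7. Over the table, calls in either direction were then 611 to 825. Without both picrotoxin 4 and DMSO 5, also chosen after seeing the data, the list counts were 6 and 3 (582 over the table). List genes lower were 3 with DESeq2 (387), permutation (706) or without DMSO replicates 3 and 5 (514). They were 2 with a mean above 10 (396 of 3741 genes).

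The sign of 6 members changed in some alternative, and the cause was not tested. Tyrobp was -0.0012 with library totals, -0.019 with the matrix covariate and -0.011 without DMSO replicates 3 and 5. Gpnmb was -0.017 without both extreme libraries and -0.75 among replicates 3 to 6 without picrotoxin 4, Spp1 was -0.23 and -0.50 there, and Cd9 0.13 in the latter. Spp1 was also -0.035 with limma-voom and -0.022 with permutation. Fabp5 was 0.0063 with the replicate term, 0.32 with the covariate and 0.33 without DMSO replicates 3 and 5. When 1 library was left out, Lpl ranged from -0.32 to 1.31, Gpnmb from -0.32 to 1.38, Spp1 from -0.36 to 0.21 and Fabp5 from -0.42 to 0.15, each lowest without picrotoxin replicate 4. Lgals3 ranged from -0.17 to -0.05, Cd9 from -0.33 to -0.07, Tyrobp from 0.00085 to 0.15 and Apoe from 0.14 to 0.29. Lpl was 0.42 without both extreme libraries and 0.20 among replicates 3 to 6 without picrotoxin 4. The median r of Lpl, Gpnmb, Spp1 and Fabp5 was 0.050 without the farthest 2 libraries, 0.082 without picrotoxin replicate 4 and -0.12 without both extreme ones. These genes were grouped by their values in picrotoxin replicate 4, so a fall without it follows from that choice.

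Same-numbered libraries had correlations of -0.016 to 0.047 over all tested genes (0 of 6 over 0.1). Counting noise in low genes lowers such values, so this check cannot show that same-numbered libraries share only a number. With a replicate block 43 genes were called over the table, 0 members were called and 2 were higher unadjusted, with Trem2 at 0.33. Unadjusted calls in either direction over the table were 743 with that block.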
